A study of Homo sapiens with 6 samples.

Results

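The genomic stretches described here are megabases of human chromosomes that hold few accessible sites. Chromosomes 1 to 22 were divided into bins of 1 Mb counted from position 0. Bins were chosen by the number of peak summits in the first wild-type library (WT replicate 1), and those with 4 to 15 summits were kept as peak-poor. Peaks of all 6 libraries that overlapped by at least 1 bp were merged into regions, and the members are the 3876 regions whose midpoint lay in a peak-poor bin, of 235633 regions in all. They lay in 240 of 2589 tested bins. Parts of chromosomes 4 (60 to 75 Mb), 11 (0 to 15 Mb), 13 (from 75 Mb on) and 18 (20 to 75 Mb) were left out. These had shifted as blocks between the genotypes in an earlier look at the data. Without this step 268 bins would have been peak-poor.

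The assay was ATAC-seq, where a transposase cuts exposed DNA and inserts adapters for sequencing. The cells were U2OS, an established line from a human osteosarcoma, either WT (3 libraries) or with CRAMP1 knocked out (CRAMP1-KO, 3 libraries), and the labels name no treatment. The labels do not state the allele, whether the knockout was 1 clone, or whether replicates were separate cultures, so p-values measure only how these libraries vary, which may be technical. Because WT replicate 1 chose the bins, it entered no comparison. WT replicates 2 and 3 were compared with CRAMP1-KO replicates 1, 2 and 3.

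CRAMP1 is a chromatin protein needed for the expression of linker histone H1 genes. H1 binds the DNA where it enters and leaves the nucleosome and helps neighbouring nucleosomes pack. Compact, gene-poor megabases, where cells outside the brain keep many very long neuronal genes silent, are known to be rich in H1 and to hold few accessible sites.

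Several long genes that lie wholly in peak-poor bins had a wide site near their start and mostly narrower sites along the gene. Wide sites also lay inside, such as one of 1063 bp at GRM8 and one of 1989 bp at DPP10. The promoters of 4 long genes in these bins show the sequence at their starts. GRM8, CNTN3 and GRIK2 had a wide site in all 6 libraries within 10 kb of the 5′ edge of the window set around the gene. Windows were set by hand, and their edges need not be the annotated starts. DPP10 had no region within 10 kb of the 5′ edge of its window in any library. Its first region lay just past that limit, at 10.341 kb from the edge, and was called in CRAMP1-KO replicate 3 alone. How far that region lay from the annotated start was not measured. The sequences are the 250 bases before the annotated start, 5′ to 3′ on the strand of the gene, from RefSeq (GRCh38.p14), with every CG dinucleotide in capitals. They were matched by gene symbol. They come from another build than the peaks, so whether a site covers the shown bases was not tested. GRM8 is on the minus strand at chr7:127252942-127253191, CNTN3 on the minus strand at chr3:74614660-74614909, GRIK2 on the plus strand at chr6:101393458-101393707 and DPP10 on the plus strand at chr2:114442391-114442640, all in GRCh38.p14.
GRM8: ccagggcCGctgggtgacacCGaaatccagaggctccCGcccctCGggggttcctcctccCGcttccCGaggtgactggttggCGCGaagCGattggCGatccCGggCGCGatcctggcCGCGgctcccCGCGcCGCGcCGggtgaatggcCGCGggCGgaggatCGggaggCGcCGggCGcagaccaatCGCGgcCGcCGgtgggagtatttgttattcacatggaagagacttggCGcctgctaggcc
CNTN3: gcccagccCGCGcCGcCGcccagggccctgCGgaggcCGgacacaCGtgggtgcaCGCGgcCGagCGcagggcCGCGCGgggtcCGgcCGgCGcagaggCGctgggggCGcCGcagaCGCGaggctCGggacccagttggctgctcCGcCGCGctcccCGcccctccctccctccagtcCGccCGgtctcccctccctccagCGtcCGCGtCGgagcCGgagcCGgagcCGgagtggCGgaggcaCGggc
GRIK2: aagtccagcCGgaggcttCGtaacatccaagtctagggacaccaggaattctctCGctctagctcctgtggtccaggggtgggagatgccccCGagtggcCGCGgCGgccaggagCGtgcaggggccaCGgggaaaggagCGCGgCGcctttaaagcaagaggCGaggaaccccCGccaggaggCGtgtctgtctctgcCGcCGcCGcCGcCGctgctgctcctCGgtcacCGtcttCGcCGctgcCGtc
DPP10: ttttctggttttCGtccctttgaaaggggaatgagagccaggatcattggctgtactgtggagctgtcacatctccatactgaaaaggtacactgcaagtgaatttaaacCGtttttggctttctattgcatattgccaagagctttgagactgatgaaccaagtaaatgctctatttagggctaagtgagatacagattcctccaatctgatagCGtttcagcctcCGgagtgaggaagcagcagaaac

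CG, which reads the same on both strands, occurred 32 times in the GRM8 sequence, 38 times in CNTN3, 25 times in GRIK2 and 4 times in DPP10. Over 27305 promoters of the same length in the table the median was 11. At least as many CG as in GRM8 were found in 9.26% of these promoters, as in CNTN3 in 3.16%, as in GRIK2 in 21.3% and as in DPP10 in 69.9%. These counts describe letters only.

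The libraries differed in list length. On chromosomes 1 to 22 the 3 WT libraries held 195292, 148529 and 129983 peaks in replicate order, and the CRAMP1-KO libraries 130878, 136176 and 154491. Counts of regions were therefore read as shares of all regions called in the same library, a region being called where the library had a peak in it. Any pair of libraries shared 56.5% to 69.2% of their regions. Peaks did not check the cell label. Windows at the bone genes RUNX2, COL1A1, COL1A2 and SPARC held 28 to 37, 1 to 4, 3 to 4 and 4 to 8 called regions per library. Windows at genes of other cell types held 0 at ALB (liver), 5 to 9 at PTPRC (blood) and 11 to 17 at CDH1 (epithelium). All but that of CDH1 differed by over 5% in length from the gene table.

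Members were lower in pileup and narrower than accessible sites as a whole, and most had no raised background around them. The median summit pileup, the height stacked at the summit, was 28 to 38 per library for member peaks and 35 to 49 for all peaks. Pileup is given in fragments below, though the sources do not say whether fragments or single reads were stacked. In 70.9% to 79.5% of member peaks the local background solved for the summit equalled the genome-wide rate of the library, the lowest that the peak caller allows, against 23.03% to 30.3% of all peaks. Their median width was 301 to 359 bp per library, against 351 to 464 bp over all peaks. Median −log10 q, the authors' measure of how far a peak exceeds its background, differed in direction by genotype. Member peaks lay at or above all peaks in each WT library and below them in each CRAMP1-KO library. The median was 16.2, 21.95 and 17 for member peaks of WT replicates 1 to 3, where all peaks had 11.8, 20.97 and 17. In CRAMP1-KO it was 17.5, 16.2 and 21.2, where all peaks had 19.1, 18.2 and 23.2. Barely called peaks were not more common among members: a −log10 q under 3 was found in 4.21% to 9.57% of member peaks and in 7.47% to 13.6% of all peaks.

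The peak-poor megabases held a larger share of the accessible sites in CRAMP1-KO cells. Members made up 1.40% of the called regions in WT replicate 2 and 1.36% in WT replicate 3. They made up 1.85%, 1.95% and 1.96% in CRAMP1-KO replicates 1, 2 and 3. All 3 CRAMP1-KO libraries lay above both WT libraries. The means were 1.38% ± 0.0248 (SD, n = 2) and 1.92% ± 0.0567 (SD, n = 3), a ratio of 1.39. WT replicate 1, which chose the bins, stood at 1.39%. In numbers, a peak-poor bin held on average 8.17 and 6.86 called regions in WT replicates 2 and 3, and 9.60, 10.4 and 11.98 in the CRAMP1-KO libraries. CRAMP1-KO replicate 1 thus held more member regions (2305) than WT replicate 2 (1961) although its whole list was shorter. WT replicate 1, with the longest list, held 10.6 per bin (2535 in all), more than CRAMP1-KO replicates 1 and 2. No test was run on these shares, since the bins were chosen with results known.

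**Figure D1:**
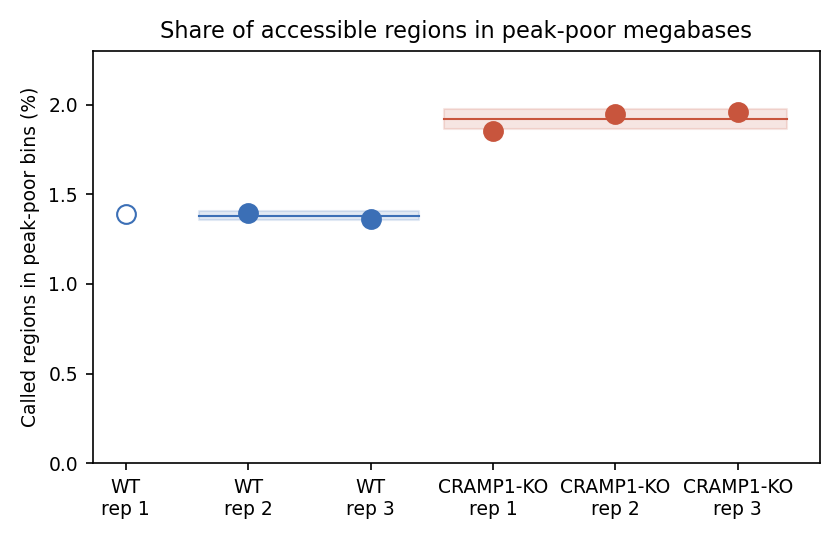
Share of each library's called regions that lay in the 240 peak-poor bins, in percent; points are libraries, lines and bands the mean ± SD of the compared libraries, and the open point is WT replicate 1, which chose the bins. The CRAMP1-KO libraries lie between 1.85% and 1.96%, above the WT libraries at 1.36% to 1.40%.

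The share was also higher when a CRAMP1-KO library defined the bins. When CRAMP1-KO replicate 1 chose them by the same limits and was left out, the share in CRAMP1-KO replicates 2 and 3 was 1.35 times that in WT. With limits of 3 to 10 summits, set after the data were seen to allow for its shorter list, the ratio was 1.41. In bins within limits in both choosing libraries it was 1.43.

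The share of called regions rose in many separate megabases. Of the 240 bins, limma called 119 (49.6%) higher in CRAMP1-KO, against 22.8% of all tested bins. It called 0 lower, with 3 at an unadjusted p under 0.05, against 9.42% of all tested bins. The median log2 change of a peak-poor bin was 0.43, with quartiles of 0.22 and 0.68, and that of all tested bins 0.05. The change was above 0 in 217 peak-poor bins (90.4%), against 59.3% of all bins. All 3 CRAMP1-KO libraries lay above both WT libraries in 168 bins (70.0%), against 36.3% of all tested bins, and below both in 7 (2.92%), against 20.3%. Shares are relative, so a rise here lowers shares elsewhere. With bins scaled to their median log ratio, limma called 105 higher (43.8%, against 17.4% of all tested bins) and 1 lower (0.417%, against 16.3%).

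**Figure D2:**
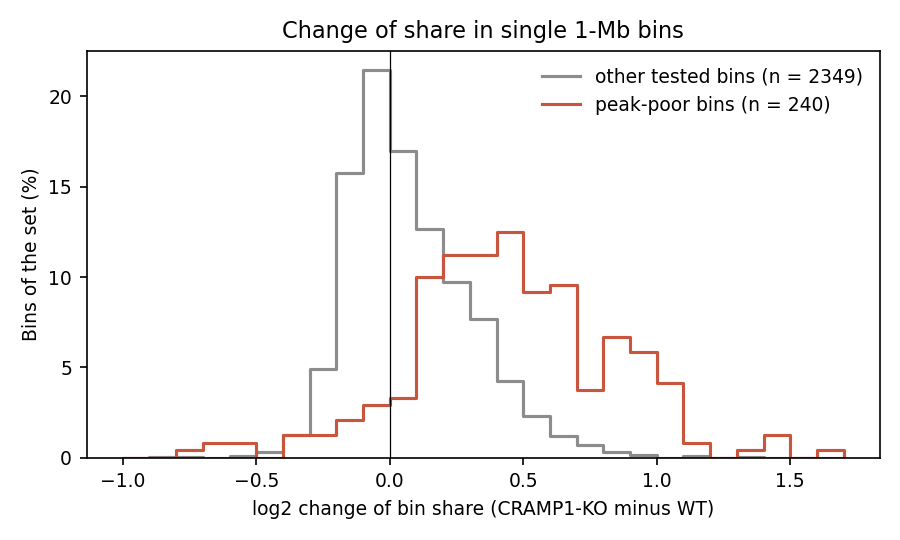
Distribution of the log2 change of bin share (CRAMP1-KO minus WT, horizontal) over the 240 peak-poor bins and the 2349 other tested bins (vertical, percent of each set, steps of 0.1). The peak-poor bins centre on 0.43, to the right of the other bins.

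The megabase with the largest gain was 67 to 68 Mb of chromosome 6. It held 4 and 3 called regions in WT replicates 2 and 3, against 10, 15 and 13 in CRAMP1-KO replicates 1, 2 and 3. Every CRAMP1-KO library held more than either compared WT library, and the log2 change of the share was 1.68 (SE 0.20, limma adjusted p = 4.83e-07). Of its 23 merged regions 5 were called in all 3 CRAMP1-KO libraries and in neither compared WT library.

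Next came 74 to 75 Mb of chromosome 3, where the neuronal adhesion gene CNTN3 lies. This megabase held 4 and 4 regions in WT replicates 2 and 3, against 10, 11 and 17 in CRAMP1-KO (log2 change 1.48, SE 0.19, limma adjusted p = 3.47e-06). The 3 members called in all 5 compared libraries also had a higher median pileup, by 0.66 on the log2 scale.

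On chromosome 13, the bin at 66 to 67 Mb held 3 and 2 regions in WT against 7, 7 and 9 in CRAMP1-KO (log2 change 1.43, SE 0.23, limma adjusted p = 4.31e-05). The bin at 71 to 72 Mb, in a run of higher bins from 70 Mb, held 3 and 3 in WT against 7, 9 and 11 in CRAMP1-KO (log2 change 1.39, SE 0.21, limma adjusted p = 2.87e-05). In these bins the compared libraries of the genotypes did not overlap. The bin at 54 to 55 Mb of the same chromosome held 3 and 2 in WT against 5, 6 and 7 in CRAMP1-KO (log2 change 1.09, SE 0.24, limma adjusted p = 0.00132).

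The other bins named by the size of their change lay on chromosomes 4, 6 and 7. The bin at 127 to 128 Mb of chromosome 4 held 4 and 2 regions in WT against 7, 7 and 13 in CRAMP1-KO (log2 change 1.41, SE 0.24, limma adjusted p = 8.68e-05). At 62 to 63 Mb of chromosome 6 there were 4 and 4 in WT against 9, 10 and 10 in CRAMP1-KO (log2 change 1.14, SE 0.20, limma adjusted p = 0.000105). At 85 to 86 Mb of chromosome 7 there were 4 and 5 in WT against 8, 12 and 12 in CRAMP1-KO (log2 change 1.11, SE 0.20, limma adjusted p = 0.000208). In all 8 named bins the compared libraries of the genotypes did not overlap. WT replicate 1, whose summits chose the bins and whose list is the longest, did not follow the other WT libraries in all of them. It held more regions than any CRAMP1-KO library in 2 bins, with 12 at 71 Mb of chromosome 13 and 13 in the bin of chromosome 6 that starts at 62 Mb. Its count lay within the CRAMP1-KO range in 3 bins, with 12 in the bin that starts at 67 Mb, 9 at 66 Mb of chromosome 13 and 10 on chromosome 7. In the bins of chromosomes 3 and 4 and at 54 Mb of chromosome 13 it held 5, 6 and 4, below every CRAMP1-KO library, where its low count is also what the rule asked for.

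The gain was spread over the chromosomes. Peak-poor bins were found on 21 of them. The share of called regions in these bins was higher in all 3 CRAMP1-KO libraries than in both WT libraries on 17 chromosomes, including all 15 with at least 5 such bins. On chromosome 1 all 12 peak-poor bins were called higher by limma, and their share of regions was 1.68 times that in WT. On chromosome 15 all 5 were called higher, at a ratio of 1.54, and on chromosome 13 there were 12 of 16 at 1.55. Chromosome 4 had the most, 34 bins, of which 18 were called higher, at a ratio of 1.39. These included the longest unbroken run, from 130 to 138 Mb. Its 8 bins held 52 and 44 regions in WT replicates 2 and 3, against 61, 67 and 77 in CRAMP1-KO, and 3 of them were called.

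Chromosome 19 went the other way. Its 4 peak-poor bins held 2.07 and 2.07 called regions per 10000 in WT replicates 2 and 3, against 1.85, 1.87 and 1.97 in CRAMP1-KO, a ratio of 0.917 with no overlap. The median pileup change of its 22 shared members was -0.21. WT replicate 1 held 1.70 per 10000, below all CRAMP1-KO libraries.

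The gain was graded with the density of sites. Bins with 4 to 7, 8 to 11 and 12 to 15 summits in WT replicate 1 had median log2 changes of 0.40, 0.58 and 0.39. Denser bins, which are no members, had 0.31 at 16 to 30 summits, 0.17 at 31 to 60, 0.01 at 61 to 100 and -0.09 above 100. Classed by CRAMP1-KO replicate 1, with that library left out, the medians were 0.56, 0.42, 0.36, 0.28, 0.06, -0.08 and -0.12 over the same steps. Just outside the lower limit, 10 bins with 3 summits held on average 2.5 and 1.9 regions in WT against 3.7, 4.5 and 5.3 in CRAMP1-KO, and the 4 bins with 4 summits held 3.25 and 3.0 against 4.75, 5.25 and 6.5. At the upper limit, 26 bins with 15 summits held 11.4 and 10.0 against 13.3, 14.3 and 16.7, and 31 bins with 16 summits 11.6 and 9.84 against 13.4, 13.97 and 16.1. The limits thus cut through a continuous range. Bins with 1 to 3 summits were not tested. Classed by WT replicate 1 (11 bins), their share in CRAMP1-KO was 2.03 times that in WT. Classed by CRAMP1-KO replicate 1 (12 bins), with that library left out, it was 1.15 times. The size of the gain below the limits thus depended on the classing library.

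**Figure D3:**
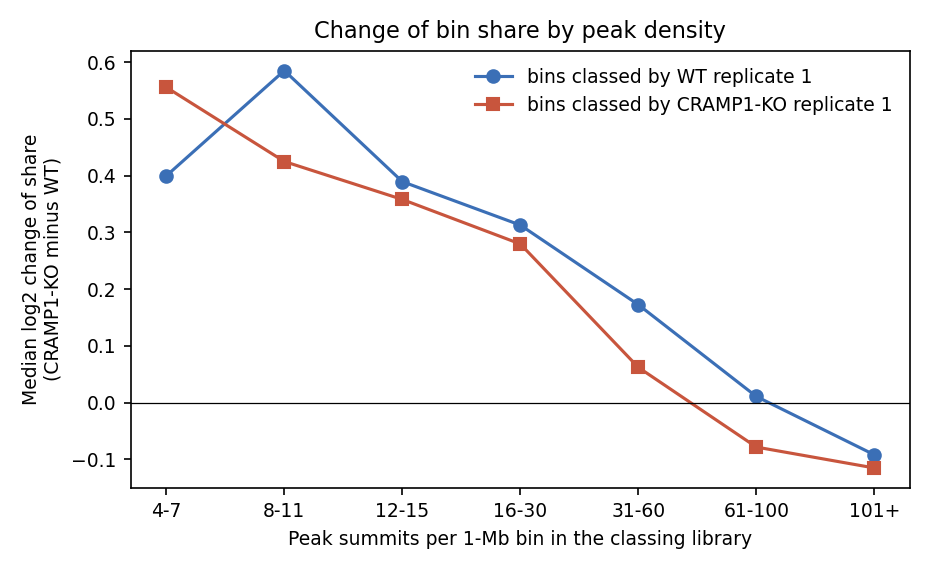
Median log2 change of bin share (CRAMP1-KO minus WT, vertical) by the number of peak summits per 1-Mb bin in the library used for classing (horizontal); circles, classed by WT replicate 1; squares, by CRAMP1-KO replicate 1, each left out of its own comparison. Medians go from 0.40 and 0.56 in the sparsest class shown (4 to 7 summits) to -0.09 and -0.12 in the densest. Classed by WT replicate 1 they peak at 0.58 in bins with 8 to 11 summits.

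Part of the gain came from sites that the compared WT libraries did not call at all. Of the 3876 members, 279 (7.2%) had a peak in all 3 CRAMP1-KO libraries and in neither WT replicate 2 nor 3, against 1.75% of all regions. The reverse pattern held for 22 (0.568%), against 1.53%. Of the 279, WT replicate 1 held a peak in 133 (47.7%). With WT replicate 1 counted too, whose few peaks here are part of the rule and therefore lend no support, 146 members (3.77%, against 0.717% of all regions) were called in CRAMP1-KO alone and 15 (0.387%, against 1.14%) in WT alone. Members called in all 6 libraries numbered 1306 (33.7%, against 37.2% of all regions), and 1091 (28.1%, against 30.8%) were called in a single library. Fewer libraries make these patterns easier to meet: 526 members were called in CRAMP1-KO alone without WT replicate 2, and 455 when CRAMP1-KO replicate 1 was dropped. The reverse count was 97 or 134 without WT replicate 2 or 3, and 34 or 39 when CRAMP1-KO replicate 2 or 3 was dropped. No share over all regions is given for these reduced sets, so their counts describe the members only.

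The members can also be split by the choosing library, which is a description only, since its peaks entered the rule. Of 1341 members without a peak in WT replicate 1, WT replicates 2 and 3 called 15.6% and 9.1%, and CRAMP1-KO replicates 1, 2 and 3 called 35.6%, 45.3% and 64.2%. Over all 52974 regions without a peak in WT replicate 1 the values were 30.2% and 19.4% in WT against 25.5%, 28.8% and 41.3% in CRAMP1-KO. Such a region is listed because another library called it, and 3 of the other 5 libraries are CRAMP1-KO. Among the 2535 members with a peak in WT replicate 1, WT replicates 2 and 3 called 69.1% and 60.2% and CRAMP1-KO called 72.1%, 74.8% and 79.4%. Over all 182659 regions with such a peak the values were 68.0% and 60.5% in WT against 60.7%, 62.0% and 68.5% in CRAMP1-KO. In this part of the split, members were thus near all regions in WT and above them in CRAMP1-KO.

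The 279 sites called in all CRAMP1-KO libraries and neither compared WT library had lower −log10 q than members called in all 5 compared libraries. Their median width was 350 bp, and that of the 22 reverse sites 355 bp. Their median −log10 q was 9.33, 8.93 and 14.8 in CRAMP1-KO replicates 1, 2 and 3, against 34.7, 36.7 and 57.9 for those shared members. They lay a median of 69.2 kb (quartiles 25.1 and 141.5) from the nearest region called in all 6 libraries. Other members called in 1 to 5 libraries lay 55.5 kb away (quartiles 18.6 and 120.1), while members called in all 6 lay 43.7 kb from the next such region and all regions of that kind 7.31 kb.

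Among the strongest of the 279 was a site of 218 bp on chromosome 8 (76424736 to 76424953 in hg19, as for all sites below), with a pileup of 58, 52 and 68 fragments in CRAMP1-KO replicates 1, 2 and 3. It had no peak in WT replicates 2 and 3 but a pileup of 64 in WT replicate 1, so its absence is not shared by all WT libraries. A site on chromosome 10 (9834123 to 9834451, 329 bp) had a pileup of 50, 37 and 66 in CRAMP1-KO and no peak in any WT library. A site of 636 bp on chromosome 12 (83783001 to 83783636) had 52, 47 and 82 fragments in CRAMP1-KO and 27 in WT replicate 1. Sites on chromosomes 7 (15929079 to 15929612), 4 (93214100 to 93214353) and 13 (70913867 to 70914220) had median −log10 q of 41.8, 39.4 and 39.4 over the CRAMP1-KO libraries, and all 3 had a weaker peak in WT replicate 1, of −log10 q 12.9, 14.5 and 9.13.

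The strongest site called in WT alone was a region of 303 bp on chromosome 11 (38358522 to 38358824), with a pileup of 56, 47 and 25 in WT replicates 1, 2 and 3. A site on chromosome 4 (134175235 to 134175632) followed with 62, 42 and 25. Neither had a peak in a CRAMP1-KO library. The other 4 of the 6 named had median −log10 q of 8.14 to 11.4.

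Sites present in both genotypes also changed in height. The pileup of 1314 members could be compared in all 5 libraries, among 87970 regions shared by these. Relative to the median of all shared regions, the median log2 pileup of members was -0.65 and -0.63 in WT replicates 2 and 3, against -0.37, -0.34 and -0.38 in CRAMP1-KO. Members were thus low in every library, and less so in all CRAMP1-KO libraries, by 0.28. The means were -0.64 ± 0.019 (SD, n = 2) and -0.36 ± 0.019 (SD, n = 3).

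By limma, 300 of the 1314 (22.8%) had a higher pileup in CRAMP1-KO, against 8.34% of all shared regions, and 30 (2.28%) a lower one, against 14.2%. The median log2 change was 0.17 for members and -0.06 for all shared regions, and 907 members (69.0%, against 42.1%) had a change above 0. Taken over the genome-wide rate of the library in place of the median of all regions, 144 (11%) were higher, against 3.29%, and 12 (0.913%) lower, against 10.0%, with a median of 0.11 for members and -0.12 for all. Leaving out WT replicate 2 or 3, so that 1 WT library remained, reduced the higher calls to 180 or 191 and the lower ones to 12 or 13. No share over all shared regions is given for these reduced sets. Regions that 1 genotype lacked cannot enter this comparison of pileup.

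Weak members rose more than strong ones. Split by their pileup in WT replicate 1, into 3 sets of like size, the weakest members (up to 47 fragments) had a median log2 change of 0.35, the middle set (up to 91) 0.22 and the strongest set 0.02. Higher calls numbered 29.7%, 24.8% and 13.9%, and lower calls 0.228%, 1.84% and 4.85%. All shared regions in the same pileup ranges had medians of 0.07, 0.03 and -0.13, with 11.8%, 12.4% and 4.88% higher and 3.42%, 8.74% and 21.3% lower. The medians of members lay above those of all regions of like height in each range.

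Width ran in parallel. Members under 500 bp had a median change of 0.22 (n = 450), those of 500 to 999 bp 0.20 (n = 657) and those of at least 1000 bp 0.0044 (n = 207). The medians of all shared regions in these classes were 0.02, -0.02 and -0.15. In the widest class 16.9% of members were higher and 6.28% lower, against 4.04% and 21% of all shared regions of that width.

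The member with the largest rise in height was a region of 464 bp on chromosome 3 (94947317 to 94947780). It had 22 and 24 fragments in WT replicates 2 and 3, against 59, 64 and 81 in CRAMP1-KO (log2 change 1.49, SE 0.19, limma adjusted p = 2.71e-10). WT replicate 1 had 27, so all WT libraries lay below all CRAMP1-KO libraries. A neighbour on the same chromosome (94998767 to 94999454) had 24 and 19 in WT against 47, 45 and 77 in CRAMP1-KO (log2 change 1.3, SE 0.20, limma adjusted p = 1.63e-07).

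On chromosome 4 a region of 601 bp (117520707 to 117521307) had 36 and 27 fragments in WT against 76, 84 and 110 in CRAMP1-KO (log2 change 1.45, SE 0.16, limma adjusted p = 8.24e-13). On chromosome 3 one of 660 bp (103845413 to 103846072) had 52 and 25 in WT against 90, 78 and 129 in CRAMP1-KO (log2 change 1.37, SE 0.16, limma adjusted p = 1.14e-12). Those on chromosome 1 (191577312 to 191578455) and chromosome 7 (122995735 to 122996141) went up by 1.33 and 1.3 (adjusted p by limma of 7.18e-12 and 6.63e-09). In all 6 regions the WT and CRAMP1-KO pileups did not overlap, WT replicate 1 included.

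Falls in height were smaller. The largest was at a region of 318 bp on chromosome 6 (87679288 to 87679605), with 52 and 21 fragments in WT replicates 2 and 3, against 16, 16 and 24 in CRAMP1-KO (log2 change -0.91, SE 0.24, limma adjusted p = 0.00265). The raw pileups overlapped there, and those centred on the median of each library did not. A strong region of 973 bp on chromosome 13 (72865264 to 72866236) had 203 and 138 in WT against 99, 94 and 162 in CRAMP1-KO (log2 change -0.60, SE 0.11, limma adjusted p = 1.96e-05), where raw pileups overlapped as well. The others, on chromosomes 21, 5, 9 and again 5, changed by -0.81, -0.68, -0.63 and -0.62.

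Bins that gained in share of regions tended to be bins whose shared sites grew. In 217 peak-poor bins with at least 3 shared members the median pileup change was above 0 in 176. The like count over all tested bins was not made. By region, a change above 0 was found in 69.0% of shared members and 42.1% of all shared regions. The median pileup change of a bin was also set beside its share of regions. It was 0.23 over the 107 bins called higher by their share of regions and 0.12 over the other 110. Spearman's rho between both changes was 0.42 across bins, given as a description, since the bins share libraries and a taller site is also more likely to be called.

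Windows at 54 genes were set by hand in hg19 coordinates. The genes came from 4 lists: cadherins, neuronal adhesion, receptors and channels, and very long genes. Of these windows 12 lay wholly in peak-poor bins. The window of PCDH10, a protocadherin, held no region in any library, and 11 held 144 members. In 9 of the 11 all CRAMP1-KO libraries had a larger share of called regions than both WT libraries. Over all 54 windows, most of them outside or partly outside peak-poor bins, 68.5% were higher in this way and 1.85% lower (74.5% and 2.13% of the 47 windows whose length matched the gene table), so those in peak-poor bins did not stand far from the lists as a whole. Of the 144 regions 13 (9.03%) were called in all CRAMP1-KO libraries and neither compared WT library, near the 7.2% of all members. None showed the reverse, against 0.568% of all members.

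All 4 genes of neuronal adhesion were higher. NLGN1, a postsynaptic adhesion protein gene on chromosome 3, held 7 and 4 called regions in WT replicates 2 and 3, against 13, 10 and 12 in CRAMP1-KO. The contactin gene CNTN3 held 2 and 2 in WT against 3, 5 and 5 in CRAMP1-KO. For both genes the compared WT libraries lay below the CRAMP1-KO libraries in number as well as in share. WT replicate 1, with the longest list, held 9 at NLGN1 and 3 at CNTN3, the latter as many as CRAMP1-KO replicate 1.

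The other 2 adhesion genes code for immunoglobulin-type cell adhesion molecules. CADM2 held 8 and 8 regions in WT against 12, 10 and 12 in CRAMP1-KO, and NCAM2 held 5 and 5 in WT against 7, 10 and 7 in CRAMP1-KO. WT replicate 1 held 10 at CADM2 and 8 at NCAM2, within the CRAMP1-KO range in number. CADM2 had 4 of its 7 shared sites higher in pileup, the most among these genes.

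Among the receptor genes GRM8, a metabotropic glutamate receptor, held 9 and 7 regions in WT against 13, 14 and 17 in CRAMP1-KO. GRIK2, a kainate receptor subunit, held 4 and 3 in WT against 6, 6 and 6 in CRAMP1-KO. FSTL5, a follistatin-like protein, held 9 and 8 in WT against 13, 12 and 13 in CRAMP1-KO. These genotypes did not overlap. DPP10, a subunit of potassium channel complexes, held 10 and 9 in WT against 9, 13 and 15 in CRAMP1-KO, which overlap. WT replicate 1 held 11, 5, 11 and 13 at GRM8, GRIK2, FSTL5 and DPP10.

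Of the very long genes, LRP1B, a lipoprotein receptor relative, held 16 and 15 regions in WT against 22, 22 and 23 in CRAMP1-KO. LUZP2, which codes for a leucine zipper protein, held 5 and 5 in WT against 6, 7 and 7 in CRAMP1-KO. WT replicate 1 held 18 at LRP1B, below every CRAMP1-KO library, and 7 at LUZP2, within their range in number. PCDH17, a protocadherin, had a single region, called in WT replicate 1 and in CRAMP1-KO replicates 1 and 3. The PCDH17 window differed by 10.9% in length from the gene table and was not counted as checked.

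**Figure D4:**
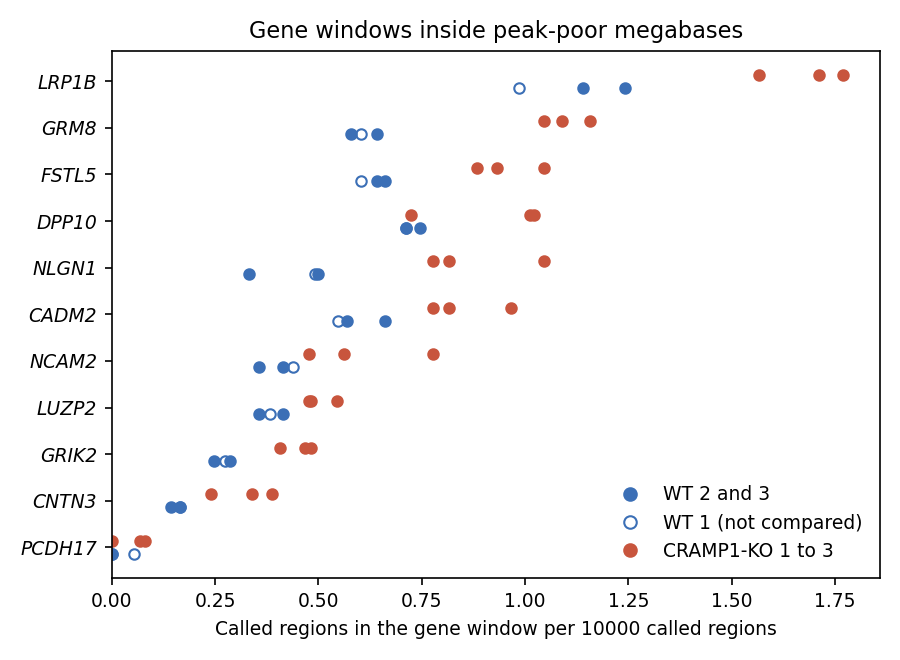
Called regions in the window of each gene per 10000 called regions of the library (horizontal) for 11 genes that lie wholly in peak-poor bins; points are libraries, with WT replicate 1 open. The CRAMP1-KO points lie to the right of both filled WT points except at DPP10 and PCDH17.

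The sites at the starts of these genes were described apart from those further inside. For 9 of the 12 genes the promoter table gave a strand. In 7 of these 9 a site called in all 6 libraries lay within 10 kb of the 5′ edge of the window. That edge was set by hand and need not be the annotated start. NLGN1 had 2, of which the wider was taken. These 7 sites were 789 to 1854 bp wide, and their pileup changes ran from -0.19 to 0.35 on the log2 scale. By limma 0 of the 7 passed the threshold (adjusted p of 0.0548 to 0.731), and 2 had an unadjusted p under 0.05. The largest changes among them were 0.35 at CNTN3 and 0.26 at FSTL5. DPP10 and PCDH17 had no such site. The promoters of the 7 genes with such a site held 11 (FSTL5) to 38 (CNTN3) CG, and those of PCDH17 and DPP10 held 10 and 4. FSTL5 and PCDH17 thus lie next to each other in CG count, and no relation was tested over so few genes.

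The comparison by width inside the windows, made after the values were seen, covered 56 shared sites. Of 11 that were at least 1000 bp wide, limma called 0 (1 higher and 1 lower at an unadjusted p under 0.05), with a median change of 0.02. Of 45 narrower ones it called 11 (24.4%) higher and 0 lower (0 also at an unadjusted p under 0.05), with a median of 0.28, and 41 had a change above 0. This share is near that of all members of such width, 23.1% under 500 bp and 24.5% from 500 to 999 bp. The 11 lay in 5 of the 10 genes with narrow shared sites, namely CADM2, CNTN3, DPP10, GRM8 and LRP1B. The difference between these classes was not tested. The 11 were 363 to 777 bp wide.

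GRM8 gives an example of sites along a single gene. Its start-side site (chromosome 7, 126892524 to 126894377, 1854 bp), near the promoter printed above, had a −log10 q of 106 and 48.1 in WT replicates 2 and 3, against 53.7, 52.7 and 80.9 in CRAMP1-KO, which overlap (pileup change -0.14, limma adjusted p = 0.437). A site of 360 bp at 126443037 to 126443396 was listed in no WT library and had a −log10 q of 29.0, 32.3 and 49.5 in CRAMP1-KO. Another wide site, of 1063 bp at 126214294 inside the gene, changed by 0.07 (limma adjusted p = 0.686). Of the narrower shared sites of GRM8, those at 126248187 and 126829077 rose in pileup by 0.54 and 0.64 (limma adjusted p of 0.0318 and 0.0433). Those at 126341139, 126368062 and 126747670 had changes of -0.20, 0.05 and 0.51 and did not pass (limma adjusted p of 0.223, 0.9 and 0.0549), and the median over its 7 shared sites was 0.07.

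At CNTN3 the start-side site (chromosome 3, 74662586 to 74664265, 1680 bp) had a pileup change of 0.35 (limma adjusted p = 0.0548). A site of 579 bp at 74580444 to 74581022 rose by 0.92 (limma adjusted p = 0.00103). A site of 240 bp at 74336803 to 74337042 was called in the 3 CRAMP1-KO libraries alone, with a −log10 q of 6.93, 3.65 and 9.76. At GRIK2 the start-side site (chromosome 6, 101840935 to 101842236) changed by 0.07 (limma adjusted p = 0.731), and the regions added in CRAMP1-KO lay inside the gene.

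**Figure D5:**
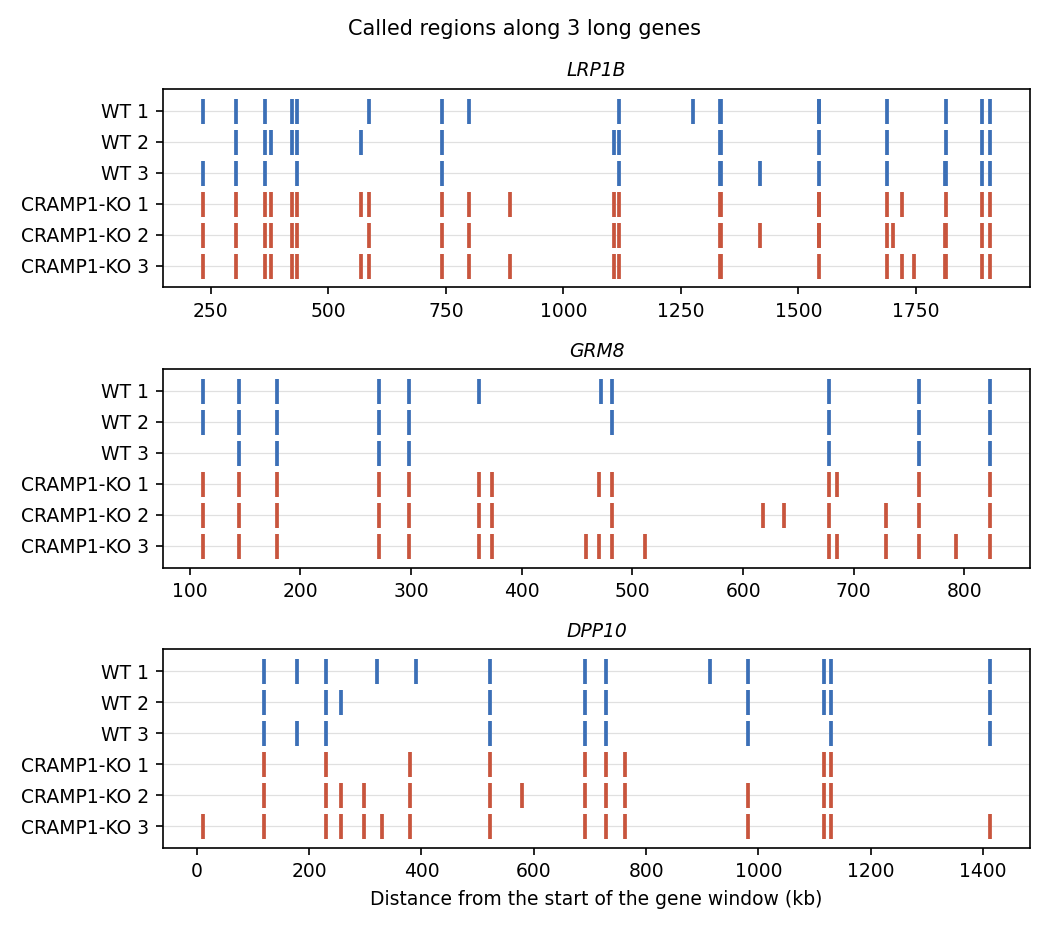
Called regions along the LRP1B, GRM8 and DPP10 windows (horizontal, distance from the lower-coordinate end of the window in kb), 1 row of ticks per library. Sites at the right-hand end of LRP1B and GRM8 are listed in all 6 libraries. Several sites inside the genes are listed in CRAMP1-KO libraries only, and fewer in WT libraries only.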

How the data were processed

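The 6 libraries came from 50000 U2OS cells each, tagmented for 30 min and amplified for 7 PCR cycles, per the labels' protocols. The submitters' processing notes name MACS3, the build hg19, BWA 0.7.17-r1188, cutadapt 3.4 and bcl2fastq 2.20.0. For MACS3 settings, duplicate handling and any read shift, the entry is not given in the sources used here. From each library the authors deposited 1 peak list. The deposited score is 10 times −log10 q, and the deposited fold is a ratio of summit pileup to local background. The deposited −log10 p and −log10 q rate each peak against that background, as p-values and q-values of the peak caller. The lists hold no counts, so the depth in reads is unknown and no counting interval is given.

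Pileup and background were solved from fold and −log10 p. The pileup was whole within 0.01 in 100.0% of peaks of every library. Regions took the strongest peak of a library.

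Bin shares, as log2 of called regions plus a pseudocount of 0.5 over the library total, and log2 pileups centred on the library median were fitted with a trend in limma 3.58.1 (R 4.3.3). Tests were two-sided, with Benjamini-Hochberg adjustment over all 2589 bins or 87970 shared regions and a threshold of 0.05. On simulated data for WT replicates 2 and 3 against CRAMP1-KO, limma called 37% of 100 bins changed by 0.5 on the log2 scale, 73% of 100 changed by 1 and 0.251% of 2389 unchanged bins. For shared regions these were 34%, 80% and 0.008%. The simulated libraries varied by counting noise (Poisson) alone around a common profile. Real libraries can vary more, so these rates need not hold for them. Python 3.11.15 with scipy 1.17.1, pandas 2.3.3, numpy 2.4.6 and matplotlib 3.10.9 did the rest.

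The members, gene lists and alternatives were chosen with earlier results of these data known. Named are the 8 called bins per direction with the largest change, adjacent called bins counted as 1 run. Named regions are the 6 per direction with the largest called pileup change and the 6 per direction called in 1 genotype with the highest median −log10 q. Gene windows were written by hand for hg19 and compared in chromosome and length with a RefSeq gene table (GRCh38.p14), 11 of the 12 in peak-poor bins and 47 of all 54 agreeing within 5%. The values of 1 further window are not reported here. Windows were named where the genotypes did not overlap, or as the 3 with most regions. PCDH10, PCDH17, the start-side sites and the width classes were added after values were seen. An hg19 genome was not used here, so sequences of members and their annotation are not shown. Coordinates count from 1.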

Additional observations from a re-analysis of the deposited data

How the results depend on the processing

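Of 130 alternative values, 92 stayed within 1.5 times the count or within 1 SD of the value given above. Most of them are counts, which cannot change direction. The ratio of shares, at least 1.321, and the pileup difference, at least 0.2193, could have done so and did not. Bins chosen with CRAMP1-KO replicate 1 (346 bins) gave 2 lower bins, 682 and 65 regions called in CRAMP1-KO or in WT alone, and 61 lower pileups. With 3 to 10 summits in that library there were 75 of 156 bins and 119 of 710 pileups higher. In bins within limits in both libraries, 64 of 134 bins and 107 of 621 pileups were higher and 19 pileups lower. These 2 choices, and the genome-wide rate, were added after seeing the data. With 4 to 10 summits in WT replicate 1 (103 bins) the ratio of shares was 1.458, with 50 bins higher, 107 and 4 regions called in CRAMP1-KO or in WT alone, and 91 pileups higher and 9 lower; fewer bins enter there. Comparing WT replicate 1 too gave 3 lower bins, 146 regions called in CRAMP1-KO alone and a pileup difference of 0.2316. Keeping the 4 segments gave 58 lower pileups, median scaling 1 lower bin, and bases covered a ratio of 1.321 and 2 lower bins. Over the genome-wide rate the pileup difference was 0.2193, with 144 higher and 12 lower. For most of the alternatives, here and below, no share over all bins or regions is given, so the counts describe the members only. The cause of these shifts was not tested.

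Leaving out each library in turn, higher bins numbered 81 to 115, lower bins 0 to 1, regions called in CRAMP1-KO alone 318 to 526 and in WT alone 27 to 134. The ratio of shares ran from 1.373 to 1.414 and the pileup difference from 0.2504 to 0.281. Higher pileups numbered 180 to 247 and lower ones 12 to 44. Without WT replicate 2 or WT replicate 3, 97 and 134 regions were called in WT alone, 180 and 191 pileups were higher and 12 and 13 lower, and the remaining WT library was assumed to vary like the others. Regions called in CRAMP1-KO alone numbered 526 without WT replicate 2 and 455 when CRAMP1-KO replicate 1 was dropped, and those in WT alone 34 and 39 when CRAMP1-KO replicate 2 or 3 was dropped.

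The labels do not say whether same-numbered libraries were prepared together. The correlations of their deviations were -0.05, -0.09 and 0.01, which cannot settle it. With the replicate block 110 bins were higher and 0 lower, and 241 pileups were higher and 21 lower. CRAMP1-KO replicate 1 had no compared WT library of its number there, so it added nothing to the estimated change. With 2 WT libraries compared, bins of few regions and peaks near the calling limit set the precision.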
